A study of Mus musculus with 6 samples.

Results

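The Kruppel-like factors (Klf) are transcription factors whose zinc fingers bind CACCC elements and GC-rich boxes in DNA. Here 10 of them were followed in quiescent muscle stem cells (qMuSCs), namely Klf2, Klf3, Klf4, Klf5, Klf6, Klf7, Klf10, Klf11, Klf12 and Klf13. They were taken by name from the 31053 genes of the count table, which holds 17 Klf genes, and Klf9 and Klf15 were left out of the set. All 10 passed the expression minimum, as did 11633 genes in all.

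The RNA came from hindlimb qMuSCs of resting mice 3 to 4 months old, sorted for GFP driven by Pax7, the transcription factor that marks muscle stem cells. Both groups carried Pax7nGFP/+ and floxed alleles of Dio2, which encodes the type 2 deiodinase (D2) that makes active thyroid hormone, and both received tamoxifen. The 3 cD2KO mice (fl125, fl126 and fl128) had in addition Pax7-CreERT2/+, which makes a tamoxifen-inducible Cre in Pax7-expressing cells, whereas the 3 WT mice (c124, c129 and c130) were Pax7+/+, so Cre and the loss of Dio2 cannot be told apart. Each mouse gave 1 library, and the comparison asks which transcripts differ when D2 is deleted in resting qMuSCs.

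Total counts ran from 2184073 to 3897787 per library. The targeted gene, Dio2, had 21, 5 and 10 counts in the WT mice and 15, 5 and 1 in the cD2KO mice, so the counts did not set the genotypes apart, and it fell under the expression minimum. The defining muscle stem cell marker Pax7 was at 213 to 434 CPM (counts scaled to a library of 1000000 with TMM factors) in WT and at 316 to 691 CPM in cD2KO libraries. The libraries also held transcripts of other cells, among them the mural gene Myh11 at 2000.3 to 6127 CPM and the macrophage gene C1qa at 44.6 to 1347 CPM. In such bulk samples, fewer cells of a type and less RNA per cell cannot be told apart.

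Family members differ in what they bind besides DNA and in when they are made. Klf2, Klf4 and Klf6 are early response genes that flow, injury, serum or tissue dissociation can induce, and Klf2 and Klf4 are active in blood vessel endothelium and in myeloid cells. Klf3 and Klf12 are repressors that recruit CtBP, while Klf10, Klf11 and Klf13 are repressors that can bind Sin3a, and Klf10 and Klf11 are induced by TGF-β. Klf5 and Klf7 act mostly as activators, Klf5 in smooth and skeletal muscle and Klf7 in the nervous system.

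The promoters of the 3 members that were called lower in cD2KO qMuSCs, as described further on, are shown first. RefSeq (GRCm38.p6, the mm10 assembly) gave a start site for 8 of the 10 members, with none for Klf5 and Klf10 in the table used. Printed are the 250 bases before the start, read 5′ to 3′ on the gene's own strand. Capitals mark matches on either strand to some of the motifs searched, and CACCC elements are left in lower case. The capitals are GGGCGG, the letters of the GC box where Sp and Klf proteins bind, the CRE half-site with the letters TGACG, the promoter element with the letters CCAAT and the MEF2 site, and neighboring GC boxes overlap in Klf4. The Klf2 window is chr8:72318812-72319061 on the plus strand, that of Klf4 is chr4:55532476-55532725 on the minus strand and that of Klf6 is chr13:5861239-5861488 on the plus strand. The last bases of the Klf2 and Klf6 windows lie inside the gene as GENCODE draws it.
Klf2: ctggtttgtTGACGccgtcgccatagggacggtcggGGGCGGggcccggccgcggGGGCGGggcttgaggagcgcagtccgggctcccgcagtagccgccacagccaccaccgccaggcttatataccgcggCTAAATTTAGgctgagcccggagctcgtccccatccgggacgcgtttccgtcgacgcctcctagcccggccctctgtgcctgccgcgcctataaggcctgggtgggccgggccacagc
Klf4: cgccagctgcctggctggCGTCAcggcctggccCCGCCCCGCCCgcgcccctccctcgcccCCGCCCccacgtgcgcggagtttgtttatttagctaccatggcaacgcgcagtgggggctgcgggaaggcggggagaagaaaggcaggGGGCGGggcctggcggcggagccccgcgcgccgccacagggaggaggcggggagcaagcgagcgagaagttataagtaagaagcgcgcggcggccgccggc
Klf6: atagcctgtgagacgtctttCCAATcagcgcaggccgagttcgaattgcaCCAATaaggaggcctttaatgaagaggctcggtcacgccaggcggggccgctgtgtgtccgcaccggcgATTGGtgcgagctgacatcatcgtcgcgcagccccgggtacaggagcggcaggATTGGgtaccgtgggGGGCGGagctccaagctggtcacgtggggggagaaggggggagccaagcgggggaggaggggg

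The Klf2 window held a MEF2 site 118 bases before the start, a motif found in 0.508% of 32851 RefSeq promoter windows of the same length and in none of the other 7 member windows. A CRE half-site stood 241 bases before the Klf2 start and 232 bases before the Klf4 start, and this motif was in 17.8% of all windows. It was also in the windows of Klf12 and Klf13, so it did not set the lower members apart. GC boxes were in 7 of the 8 member windows against 32.7% of all windows, and the GC content of the members' windows ran from 48% (Klf12) to 78.4% (Klf3) against a median of 52.4%. The CACCC element that the family itself binds was in 5 of 8 windows, those of Klf2, Klf3, Klf7, Klf12 and Klf13, against 52% of all windows. Klf6 held 4 CCAAT boxes, a motif in 33.8% of all windows. The AP-1 site (TGANTCA), the AGGTCA half-site bound by thyroid hormone receptors and the CArG box bound by SRF were in 0 of the 8 windows and in 6.75%, 14% and 1.47% of all windows. A match is a description of letters and not evidence that a factor binds there.

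In cD2KO qMuSCs the levels of Klf2, Klf4 and Klf6 were below those of WT, and 0 members were higher. The WT mean was 2.75 times the cD2KO mean for Klf2, 2.65 times for Klf4 and 1.68 times for Klf6. The other 7 members did not pass the test. Calls were made by the quasi-likelihood test of edgeR, fitted over all genes, where the unadjusted p was under 0.05. By this rule 6.62% of the 11633 genes were lower and 5.34% higher in cD2KO, so the 3 lower members of 10 stand at 30.0% beside that background. The members were chosen with earlier results of these data known, and Klf9 and Klf15, left out of the set, did not pass. The shares are therefore a description and no test of the family. At an adjusted p under 0.05 edgeR called no member, against 0.0086% of all genes. DESeq2's Wald test called Klf2 and Klf4 at that threshold (adjusted p = 0.0019 and 0.00116). The share of all genes that DESeq2 called there was not counted, and the edgeR share cannot stand in for it. In edgeR's test, 2 members and 0.49% of all genes were lower at an adjusted p under 0.1. The median log2 fold change of the members was -0.36, against -0.02 over all genes tested, and it was below 0 in 9 of 10 members and in 51.9% of all genes.

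**Figure D1:**
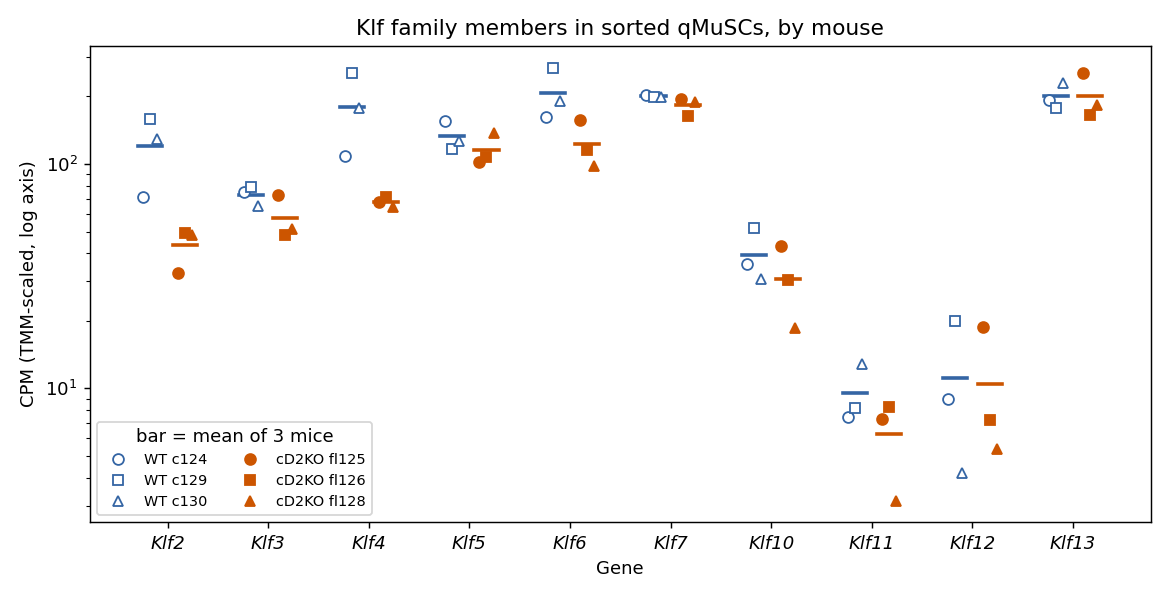
CPM (TMM-scaled, log axis) of the 10 Klf genes in each mouse, with open blue symbols for WT, filled orange symbols for cD2KO and bars for the mean of 3 mice. For Klf2 and Klf4 all 3 orange symbols lie well below all 3 blue ones, Klf6 separates by a small margin, and Klf13 and Klf12 are intermixed.

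Klf2 (ENSMUSG00000055148), which in endothelium responds to blood flow and in T cells keeps naive cells quiescent, lies on chromosome 8 of mm10 from 72319033 to 72321656, on the plus strand. It was at 71.1, 159 and 129.8 CPM in WT (c124, c129 and c130, in that order) and at 32.8, 49.5 and 48.3 CPM in cD2KO (fl125, fl126 and fl128). The groups did not overlap, the lowest WT mouse being 1.44 times the highest cD2KO mouse, and c124 was the lowest WT mouse by far. Means were 119.8 ± 44.6 CPM in WT and 43.5 ± 9.33 CPM in cD2KO (mean ± SD over 3 mice per group). The log2 fold change was -1.45 (standard error 0.29, 95% confidence interval -2.07 to -0.83; edgeR unadjusted p = 0.000205, adjusted p = 0.0886), the 25th smallest p of all genes tested. The adjusted p ranged from 2.23e-06 to 0.434 over 15 alternative fits, the upper end without WT mouse c129.

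Klf4 (ENSMUSG00000003032, chromosome 4 from 55527143 to 55532466, minus strand) is one of the factors that reprogram somatic cells to pluripotency and also switches smooth muscle cells out of the contractile state. Its levels were 108, 255 and 177 CPM in c124, c129 and c130 and 67.4, 71.5 and 64.4 CPM in fl125, fl126 and fl128. The cD2KO mice lay close together, with a coefficient of variation of 5.27% against 41.1% in WT, and all of them lay below the lowest WT mouse. Means were 180.0 ± 73.9 CPM in WT and 67.8 ± 3.57 CPM in cD2KO (mean ± SD over 3 mice per group), which gave a log2 fold change of -1.41 (standard error 0.27, 95% confidence interval -1.99 to -0.82; edgeR unadjusted p = 0.000162, adjusted p = 0.0886). Its adjusted p ranged from 2.18e-06 to 0.382 over the same 15 fits. The ratio of Klf4 to Klf2 CPM within a mouse was 1.36 to 1.61 in WT and 1.33 to 2.06 in cD2KO, so it overlapped between the groups.

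Klf6 (ENSMUSG00000000078, chromosome 13 from 5861482 to 5870394, plus strand) is induced by injury and activates TGF-β pathway genes. It was at 162, 269 and 190.0 CPM in the WT mice and at 157, 115 and 98.2 CPM in the cD2KO mice, in the same order of mice. The groups did not overlap, but WT c124 and cD2KO fl125 were nearly equal, at a ratio of 1.04. Means were 207 ± 55.5 and 123 ± 30.2 CPM (mean ± SD over 3 mice per group), and the log2 fold change was -0.75 (standard error 0.24, 95% confidence interval -1.27 to -0.24; edgeR unadjusted p = 0.00734, adjusted p = 0.203). Without WT mouse c129 the log2 fold change of Klf6 was -0.50 and the unadjusted p was 0.0529, so the call rests on that mouse, and the adjusted p ranged from 0.0451 to 0.645 over all alternatives. Klf2 and Klf4 kept an unadjusted p under 0.05 in 15 of 15 fits, with log2 fold changes of -1.17 and -1.04 without c129.

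**Figure D2:**
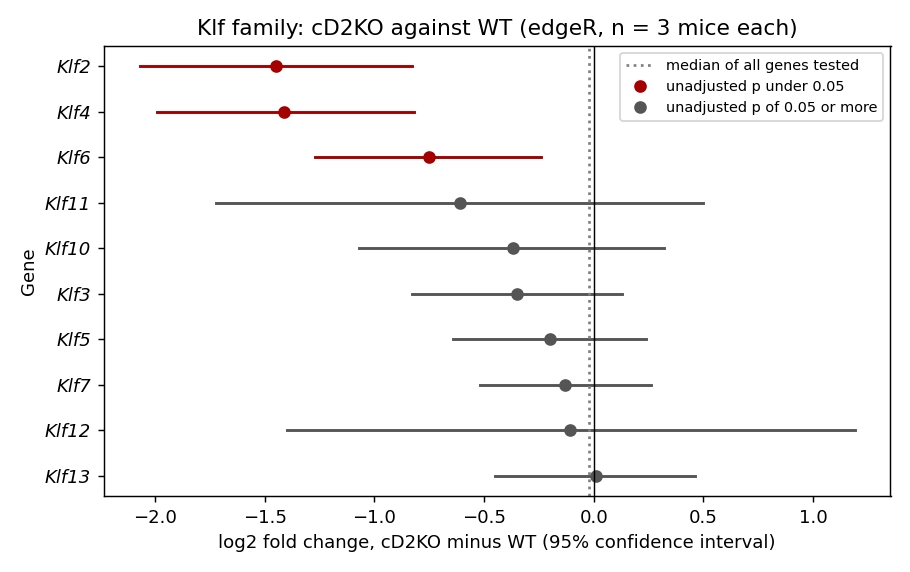
Log2 fold change of each Klf gene, cD2KO minus WT (x axis), with its 95% confidence interval from edgeR, n = 3 mice each; red marks an unadjusted p under 0.05 and the dotted line the median of all genes tested. Only the intervals of Klf2, Klf4 and Klf6 lie wholly below 0, and those of Klf11 and Klf12 are the widest.

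The activators Klf5 and Klf7 did not pass the test. Klf5 (chromosome 14 from 99298691 to 99315036) was at 156, 117 and 126 CPM in WT and at 102, 107 and 138 CPM in cD2KO mice, with overlapping groups and a log2 fold change of -0.20 (95% confidence interval -0.64 to 0.24; edgeR adjusted p = 0.766). Klf7 (chromosome 1 from 64029447 to 64122282) was the steadiest member among the WT mice, at 203, 199 and 198 CPM, against 194, 164 and 189.8 CPM in cD2KO mice. All cD2KO mice were below all WT mice for Klf7, yet the log2 fold change was -0.13 with a 95% confidence interval of -0.52 to 0.26 (edgeR adjusted p = 0.847). With Klf7, 4 of the 10 members had groups that did not overlap, all lower in cD2KO, where 10% of all genes tested did so in that direction. Exons of Klf7 overlap Gm26649 and Gm13748 on the opposite strand, so its counts are uncertain where strand was not used.

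Of the CtBP-recruiting repressors, Klf3 (chromosome 5 from 64803388 to 64832901) was at 74.7, 78.7 and 65.1 CPM in WT and at 72.9, 48.2 and 51.2 CPM in cD2KO mice. The cD2KO mouse fl125 lay among the WT mice and the other two below them, and the log2 fold change was -0.35 (95% confidence interval -0.83 to 0.13; edgeR adjusted p = 0.581). Without fl125 it was -0.51 with an unadjusted p of 0.0332. Klf3 overlaps Gm20033 on the opposite strand. Klf12 (chromosome 14 from 99870632 to 100284679) was low and the most variable member, at 9.01, 20.0 and 4.18 CPM in WT and 18.7, 7.22 and 5.37 CPM in cD2KO mice. Its 12 to 54 counts per library left a 95% confidence interval from -1.40 to 1.19 on the log2 scale, and its level varied by 73.4% among WT and 69.1% among cD2KO mice (SD relative to the mean). Its sign turned in 3 fits that left out a mouse.

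The Sin3a-binding repressors did not pass the test either. Klf13 (chromosome 7 from 63886351 to 63938915) had almost equal means, 200.3 ± 27.0 CPM in WT and 201 ± 47.2 CPM in cD2KO (mean ± SD over 3 mice per group), with a log2 fold change of 0.01 (95% confidence interval -0.45 to 0.46) whose sign changed in 6 of 15 fits. Klf10 (chromosome 15 from 38291463 to 38300706) was at 35.8, 52.0 and 30.6 CPM in WT and 43.3, 30.3 and 18.6 CPM in cD2KO mice, a log2 fold change of -0.37 (95% confidence interval -1.07 to 0.32; edgeR adjusted p = 0.722). Klf11 (chromosome 12 from 24651274 to 24662789) was at 7.47 to 12.9 CPM in WT and at 3.16 to 8.25 CPM in cD2KO mice, a log2 fold change of -0.61 with a 95% confidence interval of -1.72 to 0.50 (edgeR adjusted p = 0.709). With 10 to 37 counts per library, a change of the size seen for Klf2 lies within the interval of Klf11. Such a change lies outside the intervals of Klf3, Klf5, Klf7, Klf10 and Klf13. The interval of Klf12 ended at -1.40, close to the -1.45 of Klf2, and held the -1.17 that Klf2 had without c129. A fall of about that size is thus not excluded for Klf12.

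Summed over the 10 members, the family was at 1019, 1336 and 1165 CPM in c124, c129 and c130 and at 950.5, 767 and 800.0 CPM in fl125, fl126 and fl128. Most of the spread lay in Klf2, Klf4 and Klf6, whose sum was 341 to 683 CPM in WT and 211 to 257 CPM in cD2KO mice. The other 7 members together were at 653 to 678 CPM in WT and 532 to 694 CPM in cD2KO mice, where the groups overlapped. Klf2 made up 9.99% ± 2.65 of the family's CPM in WT and 5.31% ± 1.63 in cD2KO, and Klf4 15% ± 4.25 and 8.15% ± 1.12 (mean ± SD over 3 mice per group). The share of Klf13 was 17.3% ± 3.52 in WT and 23.8% ± 2.68 in cD2KO at nearly equal mean CPM. Klf2, Klf4 and Klf6 were set apart from the other 7 by the test on these same data. The contrast between the sums follows from that choice. No test was made of these sums and shares, since the members were chosen with results of these data known.

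**Figure D3:**
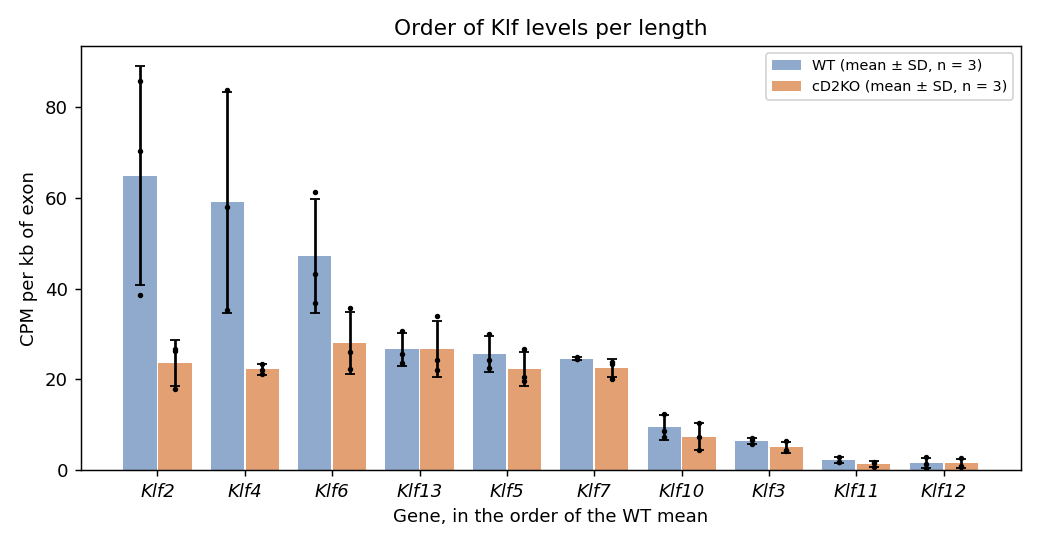
CPM per kb of exon (y axis) of each Klf gene in the order of its WT mean, as bars for the mean, error bars for the SD of 3 mice and dots for single mice, blue for WT and orange for cD2KO. Klf2, Klf4 and Klf6 lead in WT, from 64.9 to 47.2, and in cD2KO the first 6 genes lie between 22.2 and 28.0.

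To set the genes against each other, levels were divided by the exon length of each gene in GENCODE M21. In WT mice Klf2 led with 64.9 ± 24.1 CPM per kb, followed by Klf4 with 59.0 ± 24.3 and Klf6 with 47.2 ± 12.6 CPM per kb (SD, n = 3 mice), and the ranges of these neighbors overlapped. Klf13, Klf5 and Klf7 came next at 26.6, 25.6 and 24.6 CPM per kb, below every WT value of Klf6 and not separable from one another. Klf10, Klf3, Klf11 and Klf12 followed at 9.44, 6.48, 2.19 and 1.59 CPM per kb, and of these only the neighbors Klf11 and Klf12 overlapped. In cD2KO mice the first 6 places were taken by Klf6, Klf13, Klf2, Klf7, Klf5 and Klf4, at 28.0 to 22.2 CPM per kb, with overlapping ranges at each step. The labels name a digital RNA-seq service, and whether reads came only from transcript ends is not given in the sources used here. If they did, dividing by length places long genes such as Klf3 and Klf7 too low.

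Of the 16 other Klf and Sp genes listed, 7 were tested, and Klf16 alone passed, being lower in cD2KO, as were 6.62% of all genes. It was at 9.79, 10.02 and 17.4 CPM in WT and at 4.10, 4.82 and 7.58 CPM in cD2KO mice, which did not overlap (log2 fold change -1.15, standard error 0.47, edgeR adjusted p = 0.361), and 0 of the list were lower without c130, without fl126 or in limma voom. Klf9, a gene induced by thyroid hormone in many tissues, stood above each of the 10 members per length, at 104 CPM per kb in WT. It was at 458, 536 and 515 CPM in WT and 521, 501 and 399.8 CPM in cD2KO mice, with a log2 fold change of -0.08 (95% confidence interval -0.51 to 0.34; edgeR adjusted p = 0.919). Klf15, induced by glucocorticoids, had a log2 fold change of 0.08 (95% confidence interval -0.52 to 0.68). Sp1, which shares the GC box with the family, was at 117 to 137 CPM in WT and 87.8 to 126 CPM in cD2KO and did not pass. Klf1, the erythroid factor, had 0 counts in each library.

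Among the partners and regulators of the family few genes passed, near the shares of all genes, 6.62% lower and 5.34% higher. Of 16 corepressors and coactivators tested, 0 were higher and 1 was lower, Ctbp2, a corepressor that Klf3 and Klf12 recruit. Ctbp2 was at 64.1, 84.3 and 59.2 CPM in WT and 49.2, 53.3 and 46.1 CPM in cD2KO mice, without overlap (log2 fold change -0.48, standard error 0.22, edgeR adjusted p = 0.404). Only the fit without c130 kept a lower gene in this list when single mice were left out, and 0 were lower in DESeq2's Wald test, in limma voom, in edgeR with DESeq2 size factors and with no filter. In the fit without c129, 1 gene of this list was higher. Sin3b and Ncor1 were higher in cD2KO without overlap, by 0.25 and 0.16 on the log2 scale, but did not pass. Of 20 upstream regulators tested, Smad4 was higher by 0.60 on the log2 scale with overlapping groups, and Tgfbr2, the type II TGF-β receptor, was lower by the same test. Tgfbr2 was at 62.3, 85.8 and 46.6 CPM in WT and 29.1, 46.4 and 33.2 CPM in cD2KO mice, the closest pair being c130 and fl126 (log2 fold change -0.83, standard error 0.27, edgeR adjusted p = 0.212). Without c129, 0 of these regulators were lower, and without c130 or fl128 or with total count scaling, 0 were higher, while 2 were lower without c124 and 2 were higher with no filter.

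The MEF2 and ERK5 genes that drive Klf2 and Klf4 transcription in endothelium did not pass. Mef2a had a log2 fold change of -0.31, Mef2c of 0.19, Mef2d of 0.30, Map2k5 of 0.00 and Mapk7 (ERK5) of 0.23, with edgeR adjusted p between 0.593 and 0.998. Of 13 ubiquitin ligases and deubiquitinases that act on Klf proteins, Wwp1, a ligase that targets Klf2 and Klf5, fell by 1.01 on the log2 scale, and its relative Wwp2 rose by 0.83 (edgeR adjusted p = 0.203 and 0.130). Wwp1 was at 47.6, 107 and 62.0 CPM in WT and 26.9, 31.3 and 48.6 CPM in cD2KO, so that c124 and fl128 overlapped. Wwp2 did not overlap, at 43.9 to 62.7 CPM in WT and 76.5 to 103 CPM in cD2KO mice. In this list 1 gene was lower and 1 was higher, near the 6.62% and 5.34% of all genes. Without c129, 0 of this list were lower, and without c124 or fl126, 2 were higher.

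Of 22 known targets of Klf factors tested, 2 were lower, S1pr1 and Lgals3, and 2 were higher, Tagln and Acta2, beside 6.62% and 5.34% of all genes. Over the list the fold changes had a median of -0.15 (log2), and 5 of 26 were lower with no filter. Without fl125, 4 were higher. S1pr1, a sphingosine phosphate receptor that Klf2 activates in T cells and endothelium, was at 7.73, 17.8 and 19.8 CPM in WT and 1.37, 6.53 and 2.53 CPM in cD2KO mice (log2 fold change -2.07, standard error 0.58, edgeR adjusted p = 0.151). Lgals3, which encodes galectin 3 and is abundant in macrophages, fell by 1.62 on the log2 scale. Tagln and Acta2, smooth muscle genes that Klf4 represses, were higher by 0.95 and 1.17 (edgeR adjusted p = 0.0886 and 0.158), and both are also in the mural marker list described next. Thbd, an anticoagulant receptor induced by Klf2, had a log2 fold change of -0.60 and Cdkn1a, the cell cycle inhibitor p21 that Klf4 and Klf6 can induce, one of 0.35, and neither passed.

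Klf2, Klf4 and Klf6 are made in several of the cell types found in the libraries, and they are early response genes. The markers of those cells and the early genes were therefore set beside them. Over all genes tested, 6.62% were lower and 5.34% higher in cD2KO. Of 32 early genes that tissue dissociation can induce, 13 were lower and 1 was higher in cD2KO, with a median log2 fold change of -0.74. The lower genes with the smallest p were Btg2, an antiproliferative gene, Dusp6, an ERK phosphatase, and Nr4a2, a nuclear receptor, at -1.30, -1.15 and -0.62 on the log2 scale (adjusted p in edgeR 0.132, 0.152 and 0.224), and the higher one was Hspb1, a small heat shock protein, by 0.55. Summed, the early genes were at 8197, 18661 and 11314 CPM in c124, c129 and c130 and at 8080.4, 10313 and 8354 CPM in fl125, fl126 and fl128. WT mouse c129 stood apart and was also the highest mouse for Klf2, Klf4 and Klf6, and without it 2 early genes were lower, with a median of -0.34. The count was 21 without c124 and 5 without fl128. In c124 the summed early genes lay within the range of the cD2KO mice, its Klf2 and Klf4 levels lay above all cD2KO mice and its Klf6 level was close to that of fl125. Single early genes did not all follow the sum. In 9 of the 32, all WT mice, c124 included, lay above all cD2KO mice, and in 1 the reverse held. Such separation, lower in cD2KO, was seen in 10% of all genes tested. Btg2, for example, was at 111 CPM in c124 and at most 91.1 CPM in cD2KO mice. The part of the early response in the lower Klf2, Klf4 and Klf6 was not tested.

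**Figure D4:**
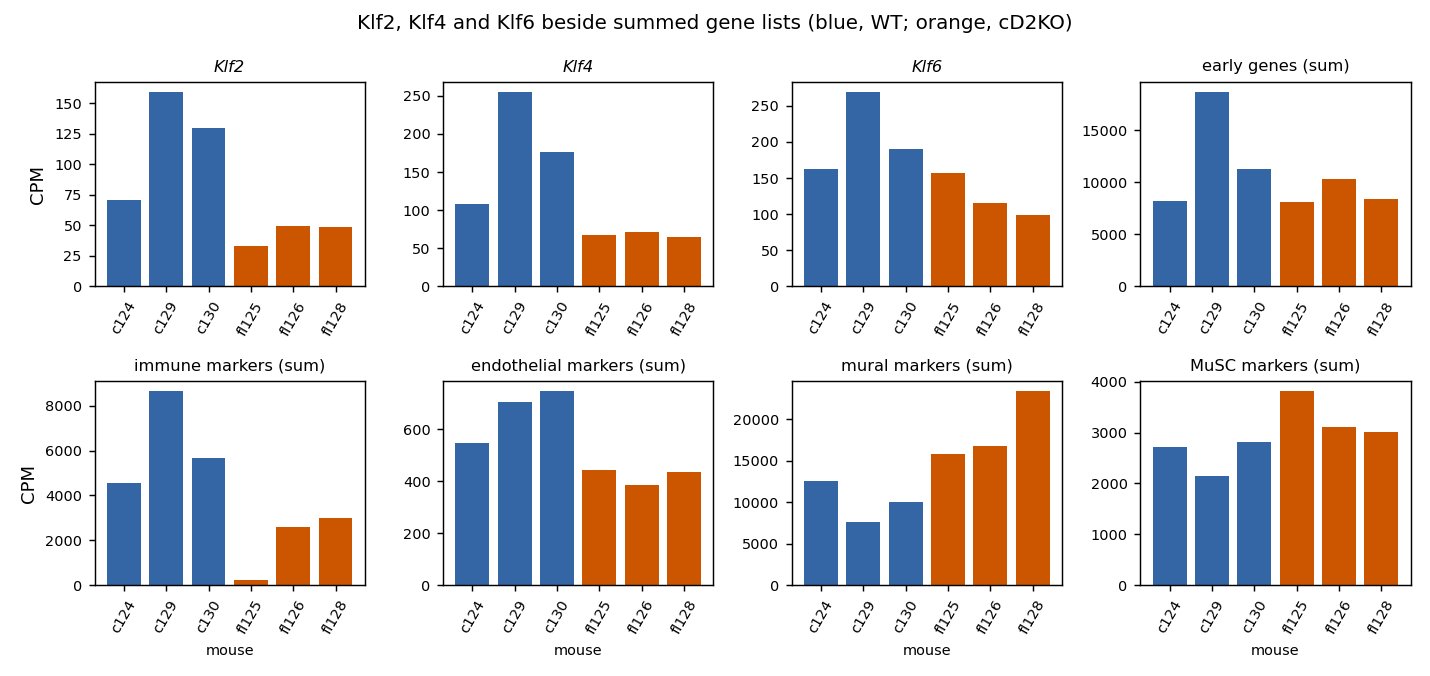
CPM of Klf2, Klf4 and Klf6 and the summed CPM of 5 gene lists in each mouse, blue for WT and orange for cD2KO, with each y axis starting at 0. Mouse c129 is the highest bar for Klf2, Klf4, Klf6, the early genes and the immune markers, and the immune markers are lowest in fl125, at 235 CPM.

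The summed level of 15 immune markers was 4566 to 8669 CPM in WT and 235 to 2996 CPM in cD2KO mice, without overlap. Of these 15, 4 were lower at an unadjusted p under 0.05, among them Ptprc (CD45), Itgam and Cd68, with log2 fold changes of -1.98, -2.32 and -1.999, and 14 were lower without fl125, 2 without c129, c130 or fl126 and 1 without fl128. The count also turned on the test, with 14 lower in limma voom, 13 in edgeR with non-robust estimation, 8 in DESeq2's Wald test and 2 in edgeR with no filter. The summed immune markers were at 235 CPM in fl125 and 2996 CPM in fl128. In the same mice Klf2 was at 32.8 and 48.3 CPM, Klf4 at 67.4 and 64.4 CPM and Klf6 at 157 and 98.2 CPM. Of 13 endothelial markers tested, 8 were lower, beside 6.62% of all genes. They were led by Flt1, a VEGF receptor, Fabp4, a fatty acid binding protein, and Kdr, the main VEGF receptor, with log2 fold changes of -1.71, -0.96 and -1.66. The others tested, Tek, Eng, Vwf, Emcn and Esam, did not pass, at 0.04, -0.06, -0.11, -0.81 and 0.32. For Esam all cD2KO mice lay above all WT mice. Summed, the 15 endothelial markers were at 548 to 749 CPM in WT and 386 to 443 CPM in cD2KO mice. Fabp4 alone was at 229 to 285 CPM in WT and 98.4 to 189 CPM in cD2KO mice. The defining markers Pecam1 and Cdh5 were at 1.72 to 18.2 and 4.10 to 28.2 CPM. The endothelial factor Erg was at 0 counts in 4 of the 6 mice. The part of either cell type in the lower Klf2, Klf4 and Klf6 was not tested.

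Beside each count that follows stand 5.34% higher and 6.62% lower of all genes tested. Of 14 mural markers, 8 were higher and 0 lower, led by Cnn1, Tagln and Mylk, contractile genes of smooth muscle, by 1.44, 0.95 and 1.02 on the log2 scale. Their sum was 7613 to 12515 CPM in WT and 15747 to 23411 CPM in cD2KO mice, so this sum and the 3 lower Klf genes moved in opposite directions between the groups. The rest of the list did not pass. Rgs5, Pdgfrb, Kcnj8, Abcc9, Myocd and Cspg4 had log2 fold changes of 0.00, -0.06, -0.36, -0.23, -0.06 and 0.25. Of 15 muscle stem cell markers, 4 were higher and 0 lower, with Des, Itga7 and Cdh15 leading at 0.95, 0.71 and 0.51. Myf5 was the other higher marker, at 0.59. Among those that did not pass, Sdc4, Spry1, Cd34, Vcam1 and Myod1 were at -0.46, -0.45, -0.13, -0.09 and -0.07. Pax7, Fgfr4, Chodl, Calcr, Chrdl2 and Heyl did not pass either, at 0.47, 0.39, 0.27, 0.26, 0.19 and 0.06. Des, an intermediate filament gene, is also in the mural list, and 2 muscle stem cell markers were higher without c130, without fl125 or with total count scaling. In the fits without fl125 or without fl128, 1 muscle stem cell marker was lower. Of 11 fibroadipogenic progenitor markers tested, Smoc2, Gsn and Lum were lower and Mfap5 was higher, with 1 lower without c129 and 5 without fl128, and 0 higher without c129, c130, fl126 or fl128, in limma voom, with total count scaling or with non-robust estimation. The Schwann cell markers Erbb3 and Cdh19 were lower. Of the 4 sex-linked genes tested, Eif2s3y fell by 1.56 on the log2 scale, while Ddx3y, Uty and Kdm5d had log2 fold changes of 0.00, -0.08 and 0.04. Xist, expressed from the inactive X chromosome of females, was at 0 counts in 5 libraries and at 1 in c130.

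**Figure D5:**
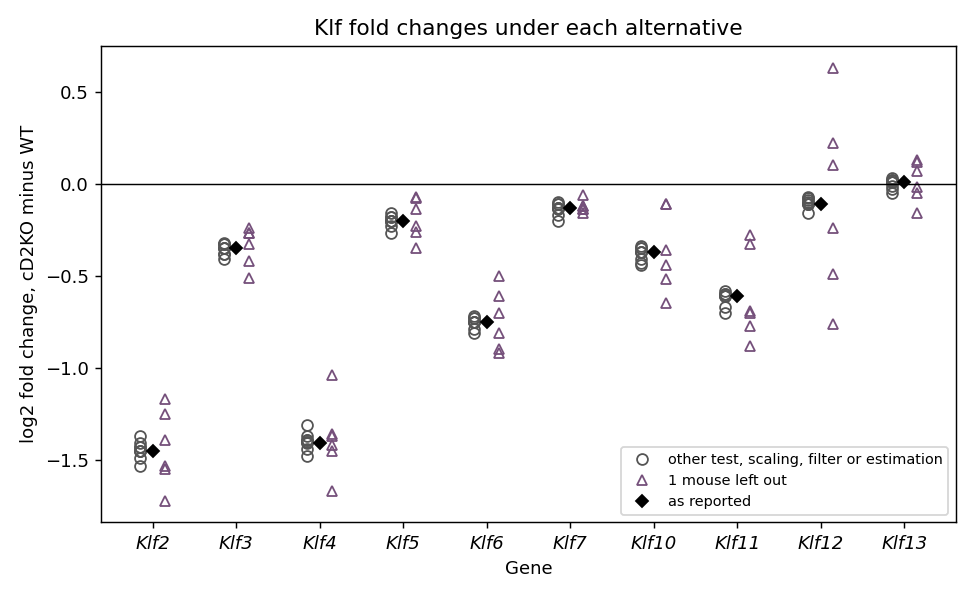
Log2 fold change, cD2KO minus WT (y axis), of each Klf gene as reported (black diamonds), under other tests, scalings, filters or estimation (gray circles) and with 1 mouse left out (purple triangles). The values of Klf2, Klf4 and Klf6 stay below 0 throughout, those of Klf4 between -1.67 and -1.04, while Klf12 runs from -0.76 to 0.63.

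The genes whose log2 CPM followed these members most closely over the 6 mice were sought among 9168 genes with a mean of at least 10 CPM. For Klf2 they were Tnc, Clic1 and H2afz (Pearson's r = 0.997, 0.994 and 0.992), for Klf4 Nek7, Pcdh17 and Itprid2 (0.993, 0.990 and 0.989) and for Klf6 Rcc2, Gnaq and Slfn5 (0.995, 0.994 and 0.991). Within the family, Klf2 and Klf4 followed each other at 0.967, Klf4 and Klf6 at 0.903 and Klf2 and Klf6 at 0.765. Klf6 followed Klf3 and Klf10, which did not pass the test, more closely than Klf2, at 0.843 and 0.831. With 6 points shared by both groups, each r holds the difference between the groups and the high values of c129, and it is given as a description.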

How the data were processed

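RNA of sorted qMuSCs from 3 WT and 3 cD2KO mice was sequenced, 1 library for each. After extraction with an RNeasy kit and alignment to mm10 by STAR, the authors deposited, for each gene, its raw count of reads, unnormalized. The submitters' processing notes name STAR 2.6.0a, HTSeq 0.9.1 and bcl2fastq; the annotation, strand setting and handling of PCR duplicates are not given in the sources used here. GENCODE M21 (mm10) gave symbols for 31011 of 31053 identifiers. Groups came from the genotype labels. Separate mice were sequenced, and no batch is given.

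Following the study, the expression minimum was a mean above 10 after scaling by DESeq2 size factors. Genes above it were tested with edgeR 4.0.16 (R 4.3.3; TMM, robust quasi-likelihood, no covariate), with Benjamini-Hochberg adjustment over all genes tested. Confidence intervals came from the same fit. Log2 CPM used a prior count of 2. Alternatives were DESeq2 1.42.0, limma 3.58.1 (voom), other scalings, filters and estimation, and each mouse left out. The counts of the other lists under these fits were added after the data were seen. The fits were first tested on simulated data. At these depths 3 counts equal 0.772 to 1.37 CPM.

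Members and gene lists were chosen with earlier results of these data known. Named are the 10 members, Klf9 and Klf15, up to 3 genes per list and direction with the smallest unadjusted p under 0.05, the 3 genes most like Klf2, Klf4 and Klf6, and defining markers. Sp1, Klf1, Thbd, Cdkn1a and the MEF2 and ERK5 genes were named after their values were seen. Part of the Schwann cell marker list is not reported here.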

Additional observations from a re-analysis of the deposited data

How the results depend on the processing

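Klf2 and Klf4 were lower at an unadjusted p under 0.05 in each of the 15 alternative fits, and Klf6 in 14 of them. The count of lower members was 2 to 4 with single mice left out and 3 in the 9 other fits, and 0 members were higher in any fit. Of all genes tested in the same fits, 3.46% (without c129) to 8.19% (total count scaling) were lower. Higher were 402 of 11634 genes (without fl128) to 939 of 18040 (no filter). Raising the threshold to an adjusted p under 0.05 left 0 members lower in edgeR's test as set out. In DESeq2's Wald test Klf2 and Klf4 had adjusted p of 0.0019 and 0.00116, and in limma voom 0.146 and 0.139. How many of all genes DESeq2 called at an adjusted p under 0.05 was not counted. Of the 148 values for single members under the alternatives, 137 kept their direction and side of the threshold. Klf12 turned from -0.11 to 0.63, 0.10 and 0.22 without c129, fl126 and fl128, its lowest such value being -0.76. Klf13, at 0.01, turned to -0.01 with limma voom, -0.05 with total count scaling, -0.03 with a minimum mean of 50, and to -0.02, -0.05 and -0.16 without c124, c129 and fl125, the highest such value being 0.13. The cause of these turns was not tested. A minimum mean of 50 left out Klf11 and Klf12, which gave no value there. The fits without 1 mouse assume that the remaining mice vary alike. No paired analysis was possible because the labels give the mice of the 2 groups no shared replicate number. Klf11 and Klf12 rested on 10 to 54 counts per library.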
